A study of Mus musculus with 16 samples.

Results

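The genes described here encode the molecules that display peptides to T cells, namely the major histocompatibility complex (MHC) chains and the proteins that load them. They were taken from the deposited expression table as every row whose name begins with H2- (the mouse MHC prefix) together with 13 named genes of the pathway, from B2m to the immunoproteasome subunits. This gave 56 of the 24187 rows. Of these, 33 belong to class I (32 heavy chain rows and B2m), 11 to class II (5 chains, 5 genes of H2-DM and H2-O, and Cd74) and 12 to neither count. One of the 12, H2-Ke6, carries the prefix through its place in the MHC and is not known as a presentation gene.

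Class I molecules sit on nearly all nucleated cells. Their heavy chain pairs with beta-2 microglobulin, and it binds peptides that the proteasome cuts in the cytosol and the TAP transporter carries into the endoplasmic reticulum. Class II molecules are alpha and beta chain pairs of B cells, dendritic cells and macrophages, loaded in endosomes after the invariant chain Cd74 has been removed with the help of H2-DM. In the mammary gland both are carried by resident immune cells, and class I also by the epithelium. NLRC5 and CIITA are the transactivators of class I and class II genes, and interferons raise both.

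RNA was measured in whole mammary gland at day 13 of pregnancy, in 4 libraries of wild-type C57BL/6 mice and 3 of mice labelled Socs2-Δs. The Socs2-Δs line was made on the strain label C57BL/6 by CRISPR/Cas9 editing, and its gene Socs2 encodes a cytokine-induced brake on JAK-STAT signalling. Wild-type mice were purchased, so source and genotype run together, and nothing in the labels says whether a replicate is 1 animal or a pool. Titles and source names call 3 RNA samples Mut, by which they were grouped here, although their genotype field says wild type. The values are FPKM, reads per kilobase of gene scaled to library size, and log2 differences are mutant minus wild type on log2(FPKM + 1), a scale that understates changes of low genes.

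The libraries held 21032973 to 24116908 reads, as recovered from the steps between low values. Socs2 itself was present in all of them, at 16.1 to 25.6 FPKM in wild type and 13.9 to 17.1 in mutant libraries. Wild-type replicates 3 and 4 stood apart by transcripts of other organs: the summed FPKM of 6 liver markers was 213.3 and 1991 there and 7.27 to 12.5 in the other 5, and that of 6 salivary gland markers 282.4 and 201.1 against 28.7 to 83.3. Wild-type replicate 4 and mutant replicate 2 stood apart in another way. The sum of 8 B cell markers was 248.7 and 189.7 FPKM in these libraries and 2.84 to 5.07 in the other 5, and Cd79a, part of the B cell receptor, measured 90.4 and 58.7 FPKM against at most 1.10 elsewhere. The summed markers of T and NK cells (148.2 and 124.9 against 14.5 to 43.5) and of lymph node stroma and high endothelium (130.0 and 84.7 against 7.49 to 15.5) were high in the same pair. Not all their genes were. Ncr1 (0.402 and 1.35), Gzma (2.62 and 6.47) and Madcam1 (1.07 and 5.39) reached 1.74, 9.57 and 8.03 in other libraries, and Ccl21a was at 0 throughout. The other genes of both lists were highest in the pair. Milk genes were present throughout, as the tissue label says, and 5 secretory markers such as Csn2 and Wap summed to 2428 to 23667 FPKM in wild type and 44371 to 59839 in mutant libraries. Adipocyte markers summed to 4786 to 8028 and 1274 to 2764 FPKM, and luminal epithelial markers to 741.7 to 1665 and 1328 to 2013. The secretory and adipocyte sums did not overlap between genotypes and the luminal sums did. Their part in the results was not tested.

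**Figure D1:**
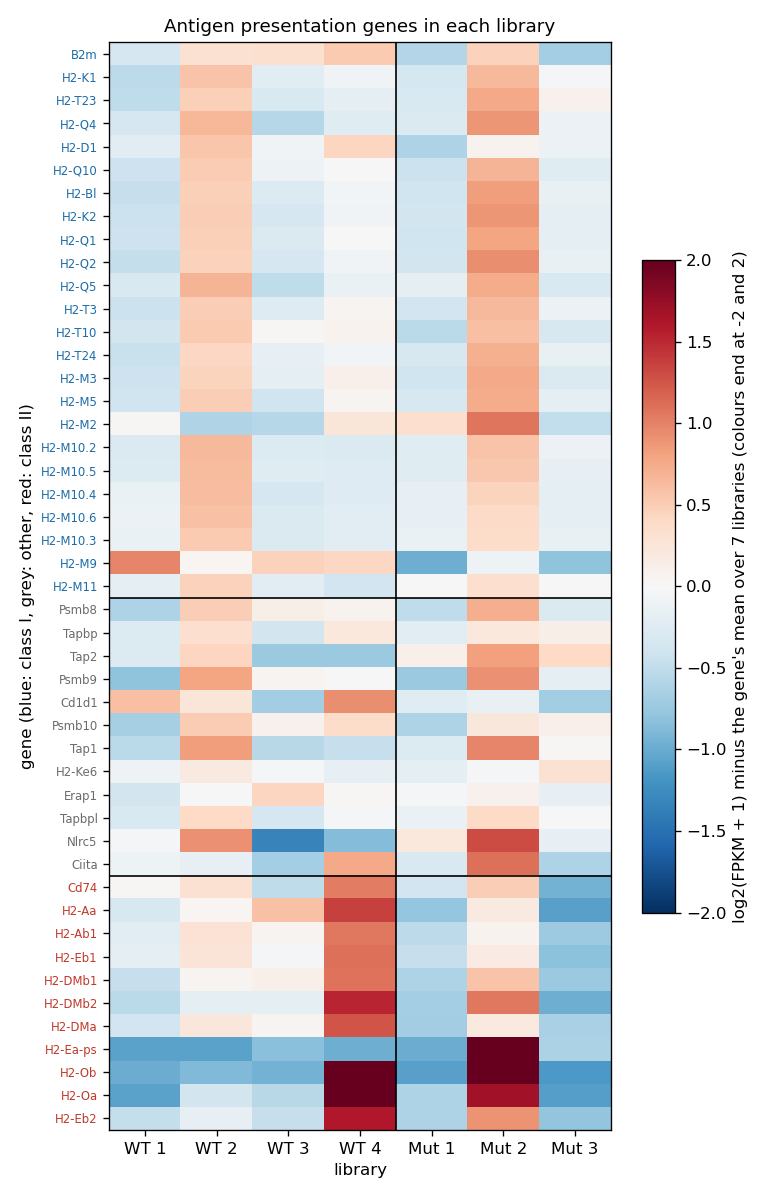
The colour of each cell gives log2(FPKM + 1) in 1 library minus the mean of that gene over the 7 libraries, for the 47 members with a mean of at least 1 FPKM. Class I rows (top) are reddest in wild-type replicate 2 and mutant replicate 2, and class II rows (bottom) in wild-type replicate 4 and, less evenly, mutant replicate 2.

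No member was called as changed with genotype. Of the 47 members tested, 0 passed the test in either direction (limma with Benjamini-Hochberg adjustment over all genes, smallest adjusted p = 0.167). An unadjusted p under 0.05 was found for 2 members. Over all 13392 genes tested the same rule called 6 genes, or 0.0448%, and 2424 genes, or 18.1%, had an unadjusted p under 0.05. On simulated data of this size, with 200 genes shifted and independent noise, the test recovered 34% of shifts of 1 on the log2 scale. That share is for genes picked at random and need not hold for the members. H2-M9, at -1.10 (SE 0.29), did not pass (limma adjusted p = 0.167), so a lack of calls does not show a lack of change. The groups did not overlap for 1 of the 47 members, against 22.5% of all genes tested. Against wild-type replicates 1 and 2 alone, 0 members passed and 2 had an unadjusted p under 0.05, beside 1.94% and 20.1% of all genes (limma). Without the pair of libraries with B cell markers, 0 passed and 3 had an unadjusted p under 0.05, beside 0.0% and 8.71% of all genes (limma).

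The class I heavy chain H2-K1 (Entrez 14972) was the most abundant MHC chain of the gland. It measured 1060.1, 2255, 1297 and 1457 FPKM in wild-type replicates 1 to 4 and 1191, 2393 and 1493 in mutant replicates 1 to 3. Both replicates numbered 2 thus lay far above the rest of their group, and the groups overlapped. The means were 1517 ± 518.4 (SD, n = 4) and 1692 ± 625.4 FPKM (SD, n = 3), a log2 difference of 0.15 with a 95% interval of -0.77 to 1.07 (limma adjusted p = 0.840). H2-D1, the other classical heavy chain of this strain, measured 268.4, 461.3, 299.2 and 426.8 FPKM in wild type and 204.8, 330.1 and 289.0 in mutant libraries (log2 difference -0.40, 95% interval -1.07 to 0.28). Mutant replicate 1 lay below every wild-type library and the other mutant libraries lay within the wild-type range. H2-L, whose gene the C57BL/6 strain is known to lack, was at 0.0883 to 0.861 FPKM, or 2 to 22 reads a library.

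The promoters of H2-K1 and H2-D1 are shown beside those of 2 class II genes because class I and class II rows followed different libraries. The windows run from 250 bases before to 50 after the gene start, 5′ to 3′ on the gene's strand, from RefSeq on GRCm38.p6, and are chr17:34000298-34000597 (minus) for H2-K1, chr17:35262844-35263143 (plus) for H2-D1, chr17:34287774-34288073 (minus) for H2-Aa and chr17:34238655-34238954 (plus) for H2-Ob. Capitals mark GGGATTCCC, the letters of a kappa B element, in the class I pair. They also mark CCTAGNNAC, a core of the class II X box, in H2-Ob. These exact letters are not in the H2-Aa window, which does not show that it lacks an X box. ATTGG, the inverted CCAAT letters of the Y box, is marked in all 4. All letters were searched on both strands.
H2-K1: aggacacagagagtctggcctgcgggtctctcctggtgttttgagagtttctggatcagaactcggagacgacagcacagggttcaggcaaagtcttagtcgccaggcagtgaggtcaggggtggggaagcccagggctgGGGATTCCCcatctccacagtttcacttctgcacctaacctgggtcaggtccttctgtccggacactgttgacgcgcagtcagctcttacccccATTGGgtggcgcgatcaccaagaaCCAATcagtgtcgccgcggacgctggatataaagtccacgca
H2-D1: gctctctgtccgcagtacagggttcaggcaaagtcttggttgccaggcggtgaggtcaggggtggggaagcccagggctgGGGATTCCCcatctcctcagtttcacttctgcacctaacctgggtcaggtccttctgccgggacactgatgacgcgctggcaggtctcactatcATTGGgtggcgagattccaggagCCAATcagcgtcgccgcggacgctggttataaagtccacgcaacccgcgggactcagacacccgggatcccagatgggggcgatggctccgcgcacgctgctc
H2-Aa: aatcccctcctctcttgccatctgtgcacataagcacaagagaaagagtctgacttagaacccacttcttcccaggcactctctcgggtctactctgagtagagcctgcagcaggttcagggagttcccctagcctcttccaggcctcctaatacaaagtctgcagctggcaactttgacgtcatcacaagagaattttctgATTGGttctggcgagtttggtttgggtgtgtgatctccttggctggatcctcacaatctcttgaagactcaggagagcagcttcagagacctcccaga
H2-Ob: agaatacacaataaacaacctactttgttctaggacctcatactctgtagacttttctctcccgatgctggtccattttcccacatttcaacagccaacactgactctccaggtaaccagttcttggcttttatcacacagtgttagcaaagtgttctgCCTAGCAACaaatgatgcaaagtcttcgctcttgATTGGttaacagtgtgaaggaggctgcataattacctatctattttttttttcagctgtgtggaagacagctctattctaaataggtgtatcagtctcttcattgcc
Over the first window listed for each gene, GGGATTCCC was found in H2-K1, H2-D1, H2-Q6 and H2-Q7 among the 23 class I promoters matched, in 0 of 8 class II promoters, and in 0.353% of all 32851 promoter windows. CCTAGNNAC was found in H2-Ob and H2-DMb1 among the 8 class II promoters, in H2-M9 and H2-M1 among the 23, and in 3.91% of all windows. ATTGG was found in 7 of the 8 (in H2-DMa in a second window only) and in 20 of the 23, but also in 37.4% of all windows. A fixed, strict spelling of the interferon response element was found in B2m, H2-T23, H2-T22 and Erap1 (3.44% of all windows). Other spellings were not searched. The absence of this spelling from windows such as those of H2-K1 and H2-D1 does not show that those windows lack the element. TTCNNNGAA, the letters of a STAT element, was found in H2-M3, H2-M11, H2-DMb2 and Psmb8 (8.3%). Each match is a description of letters only.

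B2m, the light chain shared by all class I molecules, was the most abundant member of all. It measured 1811, 2823, 2854 and 3301 FPKM in wild type and 1530.0, 3156 and 1424 in mutant libraries. Mutant replicates 1 and 3 lay below every wild-type library and mutant replicate 2 lay within their range. The log2 difference was -0.47 with a 95% interval of -1.45 to 0.51 (limma adjusted p = 0.530). In bulk tissue such as this, fewer cells of a type and less RNA per cell cannot be told apart.

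Most non-classical heavy chains followed H2-K1 from library to library. H2-T23, which encodes Qa-1, a ligand of NK cell receptors, measured 344.7, 684.1, 396.0 and 426.2 FPKM in wild type and 397.9, 826.3 and 517.3 in mutant libraries. H2-Q4 measured 301.5, 602.6, 254.3 and 321.6 in wild type and 308.5, 702.8 and 347.7 in mutant libraries. The same pair of libraries was highest for both genes. H2-Q10, known as a secreted heavy chain made in liver, measured 213.3, 406.3, 266.0 and 282.0 in wild type and 211.4, 455.5 and 239.6 in mutant libraries. The liver marker sum was highest in wild-type replicate 4 (1991 FPKM, with H2-Q10 at 282.0) and low in mutant replicate 2 (12.5 FPKM, with H2-Q10 at 455.5). The H2-Q10 row was at 16.1 to 20.5% of H2-K1 in all libraries and may share reads with other heavy chains. A part of liver RNA in its values was not tested. Of the 24 class I members tested, 21 were highest in wild-type replicate 2 within wild type and in mutant replicate 2 within mutant libraries, whereas 4.91% of all genes tested had that pattern. The exceptions were B2m, H2-M2 and H2-M9. Heavy chain rows may share reads, so the 21 are not separate observations and the count is not set against the 4.91% as such.

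Heavy chain genes are near-identical copies, and how reads that match several of them were counted is not given in the sources used here, so the values of single heavy chain rows are uncertain. Several rows kept an almost fixed proportion to H2-K1. H2-T24 was at 2.9 to 3.35% of the H2-K1 level across the 7 libraries, H2-Bl at 16.5 to 20.4% and H2-Q1 at 14.9 to 18.4%, while H2-K1 itself varied by more than any of these proportions. H2-M10.2, of a group known from the vomeronasal organ, was at 0.265 to 0.367% of H2-K1. At the other end, H2-Q6, H2-Q9 and H2-T9 were listed at 0 in all libraries, and H2-Q7, H2-Q8, H2-M1, H2-M10.1, H2-T22 and H2-L stayed under 1 FPKM in each, so these 9 rows were not tested.

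Relative to H2-K1, H2-D1 was lower in the mutant libraries. Its ratio to H2-K1 was 0.253, 0.205, 0.231 and 0.293 in wild type and 0.172, 0.138 and 0.194 in mutant libraries, without overlap. H2-T10, at 2.86 to 3.44% of H2-K1 in mutant and 3.45 to 4.23% in wild-type libraries, and H2-M9 were also lower without overlap. H2-T23 was higher, at 33.4 to 34.7% in mutant and 29.3 to 32.5% in wild-type libraries. These were 4 of 22 heavy chains tested. Of all genes, 2.86% had no overlap on this relative scale and 22.5% had none in FPKM. Division by H2-K1 adds its swings to genes that do not follow it. The 2.86% is therefore not a fair background for heavy chains, and no excess is read from it. The comparison was chosen after the values were seen and was not tested.

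H2-M9 was the member of smallest p. It measured 4.27, 1.78, 2.69 and 2.57 FPKM in wild type and 0.373, 1.51 and 0.540 in mutant libraries, from 44 to 112 and from 9 to 36 reads. Every mutant library lay below every wild-type one, and the difference of -1.10 (SE 0.29) did not pass (limma adjusted p = 0.167). H2-M2 measured 3.57 to 7.16 FPKM in wild type and 7.74, 13.5 and 3.91 in mutant libraries, without a common direction.

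Of the 7 partner, loading and transactivator genes of class I, 5 were also highest in replicate 2 of both groups, and B2m and Erap1 were not. Tap1, one of the 2 subunits of the peptide transporter, measured 29.8, 79.1, 29.5 and 31.6 FPKM in wild type and 36.0, 86.6 and 44.3 in mutant libraries. Both replicates numbered 2 lay far above the others. Its partner Tap2 measured 68.0, 112.4, 49.3 and 48.8 FPKM in wild type and 88.9, 147.1 and 109.8 in mutant libraries. Tap2 was the second member with an unadjusted p under 0.05, with a log2 difference of 0.77 (95% interval 0.01 to 1.54, limma adjusted p = 0.273). Wild-type replicates 3 and 4 held its lowest values, and leaving both out brought the difference to 0.36 (limma adjusted p = 0.553).

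Nlrc5, the class I transactivator, measured 6.54, 13.6, 2.07 and 3.26 FPKM in wild type and 7.96, 18.3 and 5.94 in mutant libraries. Wild-type replicate 2 was 3.44 times the mean of the other wild-type libraries, and mutant replicate 2 was 2.62 times the mean of the other mutant libraries. The difference between genotypes was 0.79 (95% interval -0.51 to 2.08, limma adjusted p = 0.439), and 0.02 against wild-type replicates 1 and 2. Tapbp, which encodes the bridge between TAP and the heavy chain, measured 85.8, 131.2, 79.9 and 120.4 FPKM in wild type and 88.9, 120.8 and 112.3 in mutant libraries (log2 difference 0.06). Its relative Tapbpl measured 8.33, 14.1, 8.18 and 10.3 in wild type and 9.52, 14.1 and 10.6 in mutant libraries (0.15). Erap1, the aminopeptidase that trims peptides in the endoplasmic reticulum, measured 14.8, 19.6, 26.7 and 19.9 in wild type and 19.1, 20.8 and 17.2 in mutant libraries (-0.06). The groups overlapped for all 3, and the pair of replicates numbered 2 was highest for Tapbp and Tapbpl but not for Erap1.

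The immunoproteasome subunits were highest in the same pair of libraries. Psmb9 measured 45.7, 140.6, 83.9 and 80.1 FPKM in wild type and 47.9, 152.5 and 70.2 in mutant libraries. Psmb8 measured 73.5, 159.5, 122.2 and 118.9 in wild type and 79.0, 187.4 and 91.7 in mutant libraries. Psmb10 measured 36.8, 84.9, 62.9 and 76.2 in wild type and 38.0, 69.5 and 63.3 in mutant libraries. All 3 were highest in replicate 2 of each group and lowest in replicate 1 of each, and their log2 differences were -0.02, -0.04 and -0.17, with adjusted p from 0.778 to 0.986 (limma). Irf1, which encodes a transcription factor induced by interferons, was highest in the same pair of libraries, at 41.3 and 43.0 FPKM against 19.7 to 28.8 elsewhere. This gene was named after its values were seen.

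**Figure D2:**
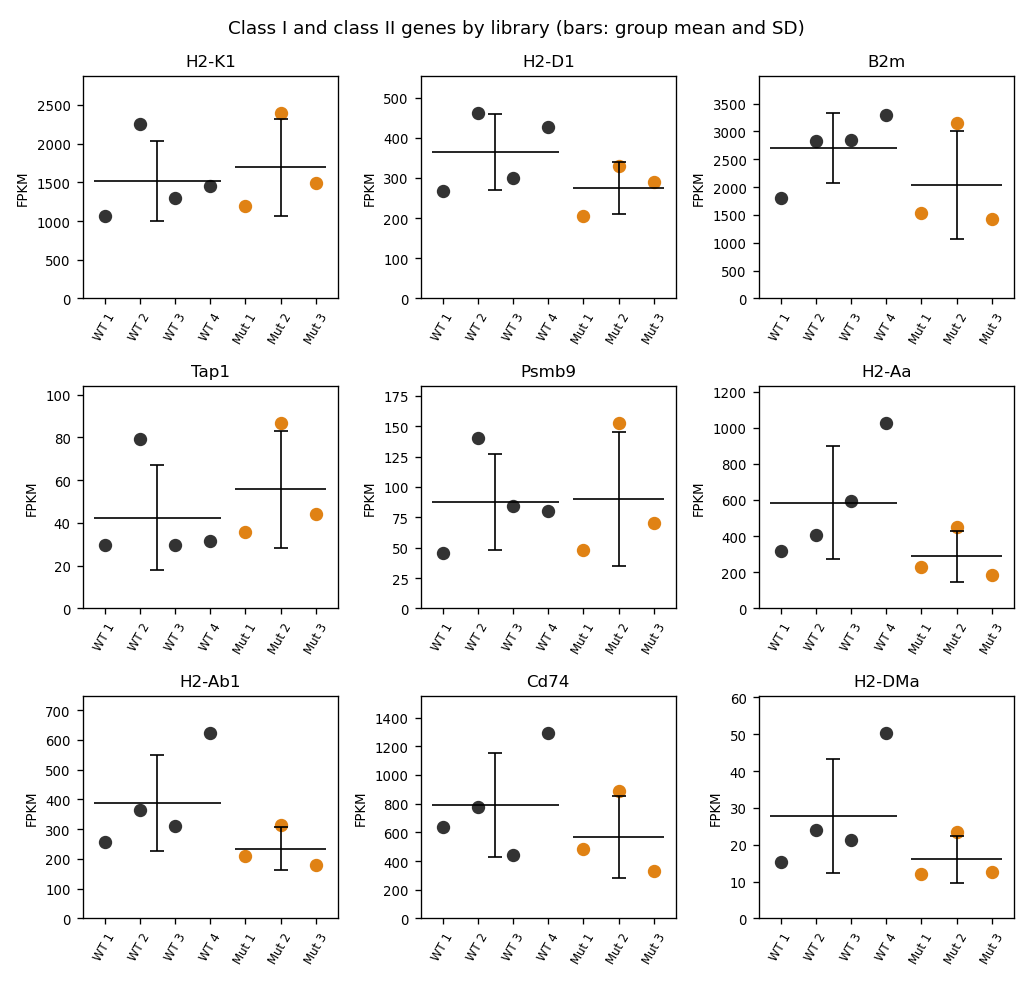
FPKM of 9 genes in each of the 7 libraries (points), with the mean of each group (horizontal line) and its SD (error bar, n = 4 and 3), each axis from 0. H2-K1, Tap1 and Psmb9 peak in replicate 2 of both groups (Tap1 at 79.1 and 86.6), while H2-Aa, H2-Ab1, Cd74 and H2-DMa peak in wild-type replicate 4 (H2-Aa at 1025).

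Of the 11 class II members, 9 had a lower and 2 (H2-Ob and H2-Ea-ps) a higher mean on the log scale in the mutant libraries, and none passed (limma). H2-Aa, an alpha chain, measured 318.1, 407.3, 592.9 and 1025 FPKM in wild type and 231.7, 449.7 and 185.8 in mutant libraries. Its partner beta chain H2-Ab1 measured 256.8, 364.7, 311.2 and 622.6 in wild type and 208.3, 315.3 and 180.0 in mutant libraries. H2-Eb1, the beta chain of the second pair, measured 198.7, 269.3, 219.4 and 483.5 in wild type and 163.0, 253.9 and 127.0 in mutant libraries. For all 3, wild-type replicate 4 was highest, mutant replicates 1 and 3 lay below every wild-type library, and mutant replicate 2 lay among them. The log2 differences were -0.98 (95% interval -2.06 to 0.11), -0.69 (-1.51 to 0.13) and -0.66 (-1.52 to 0.21), with limma adjusted p of 0.303, 0.326 and 0.356.

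Cd74, the invariant chain, measured 639.9, 778.5, 444.4 and 1291 FPKM in wild type and 486.0, 887.8 and 327.8 in mutant libraries (log2 difference -0.49, 95% interval -1.56 to 0.58). H2-DMa, a chain of the peptide exchange factor, measured 15.3, 24.0, 21.2 and 50.3 in wild type and 12.2, 23.5 and 12.6 in mutant libraries (-0.67). H2-DMb1 measured 21.7, 31.4, 32.3 and 65.4 in wild type and 19.3, 45.4 and 17.6 in mutant libraries (-0.46). In these 3 genes, too, wild-type replicate 4 was highest, and mutant replicates 1 and 3 were the lower ones of their group. The median log2 difference of the 11 class II members was -0.46. The 24 class I members tested had 20 higher and 4 lower, with a median of 0.12, beside -0.00 over all genes tested. As heavy chain rows may share reads, these 24 are not separate observations. These medians moved with the libraries used. Against wild-type replicates 1 and 2 alone, the class II median was -0.06 and the class I median -0.02, and without mutant replicate 2 they were -0.92 and -0.17.

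Markers of cells that carry class II are given beside these values. The 12 macrophage markers summed to 564.0, 673.8, 1055 and 834.1 FPKM in wild-type replicates 1 to 4 and to 393.3, 489.9 and 464.6 in mutant libraries, without overlap. Lower sums without overlap were not particular to them, as fibroblast markers summed to 2252 to 2813 and 1372 to 1952, and adipocyte sums did not overlap either. Of the 12 macrophage markers, 10 had a lower mean with an unadjusted p under 0.05 in limma (smallest adjusted p = 0.160), as had 1202 of all 13392 genes tested. The 10 dendritic cell markers summed to 74.7, 70.3, 91.9 and 130.8 in wild type and to 48.5, 79.6 and 39.2 in mutant libraries. They did not move together. Itgax was at 3.66 to 8.32 and Zbtb46 at 1.13 to 2.14 in all libraries. Clec10a, the largest part of each sum, was at 47.3 to 70.1 in wild type and 26.3 to 39.7 in mutant libraries, and Cd209a at 4.52 to 22.1 and 2.37 to 4.29. Ccr7 was at 18.8 in wild-type replicate 4, 16.7 in mutant replicate 2 and at most 0.906 elsewhere. Of the 8 dendritic cell markers tested, 4 had a higher and 4 a lower mean on the log scale, and of the 8 B cell markers 6 had a higher and 2 a lower one. Their part in the class II values was not tested. Without wild-type replicate 4 and mutant replicate 2, the pair with B cell markers, the difference of H2-Aa was -1.03 and that of H2-Ab1 -0.67 (limma adjusted p = 0.528 and 0.603). That setting was chosen after the data were seen. Without wild-type replicate 4 alone the 2 differences were -0.66 and -0.43, and without mutant replicate 2 alone -1.35 and -0.92. Against wild-type replicates 1 and 2 alone, those of H2-Aa and H2-Ab1 were both -0.42 (limma adjusted p = 0.612 and 0.484).

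**Figure D3:**
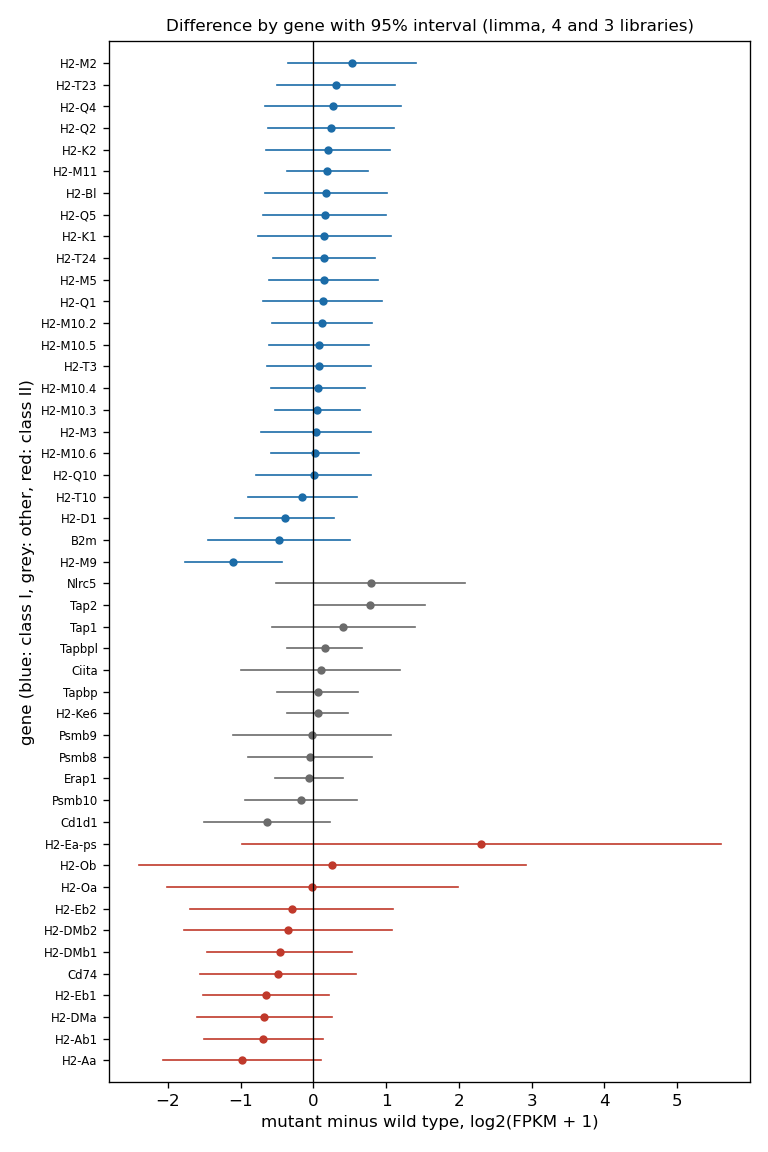
Points give the log2 difference, mutant minus wild type on log2(FPKM + 1), and lines its 95% interval in limma with 4 and 3 libraries, for the 47 members tested. Most class I genes (blue) lie near 0, most class II genes (red) lie below it with intervals that reach 0, and the widest intervals are those of H2-Ea-ps, H2-Ob and H2-Oa.

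A smaller set of class II genes was far higher in the pair of libraries with B cell markers. H2-Ob, the beta chain of H2-O, an inhibitor of H2-DM known from B cells, measured 0.690, 0.826, 0.756 and 16.6 FPKM in wild type and 0.592, 20.8 and 0.520 in mutant libraries. The 2 high libraries held 902 and 1288 reads and the other 5 held 30 to 53. Its partner H2-Oa measured 0.823, 1.98, 1.61 and 14.4 in wild type and 1.51, 11.3 and 0.794 in mutant libraries. H2-Eb2, a further beta chain, measured 0.952, 1.42, 0.972 and 7.19 in wild type and 0.758, 4.06 and 0.561 in mutant libraries. All 3 genes separated the same 2 libraries from the other 5 and did not separate the genotypes (log2 differences 0.26, -0.01 and -0.30). H2-Ob and H2-Eb2 averaged under 1 FPKM in the other 5, so they entered the test only through the 2 high libraries. Ciita, the class II transactivator, was also highest there, with 1.56, 1.45, 0.712 and 3.64 in wild type and 1.22, 4.88 and 0.779 in mutant libraries (0.10). H2-DMb2 measured 16.9, 21.9, 21.7 and 74.3 in wild type and 15.3, 53.3 and 12.3 in mutant libraries (-0.35). Of the 11 class II members, 10 were highest in wild-type replicate 4 within wild type and in mutant replicate 2 within mutant libraries, as were 10.2% of all genes tested. The 10 include H2-Ob and H2-Eb2, whose entry into the test depended on that pattern. Among the 24 class I members tested, B2m and H2-M2 showed that order.

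One row departed from all others. H2-Ea-ps (Entrez 100504404, named H2-Ea in RefSeq) measured 0, 0, 0.180 and 0.0626 FPKM in wild type and 0.0545, 99.95 and 0.355 in mutant libraries. Mutant replicate 2 held 1819 reads of it and the other 6 libraries 11 in all. The gene encodes the alpha chain that pairs with H2-Eb1. As background, the MHC haplotype of C57BL/6 mice carries a deletion in it and is known not to express it, which is why the table names it a pseudogene, while several other haplotypes do. In mutant replicate 2 it stood at 39.4% of the level of H2-Eb1, and in the other libraries at 0.279% or less. Wild-type replicate 4, with its higher B cell markers, held 1 read of it. As 1 library of 3 carried the signal, the log2 difference of 2.31 did not pass (95% interval -0.98 to 5.60, limma adjusted p = 0.382), and the row entered the test only through that library.

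**Figure D4:**
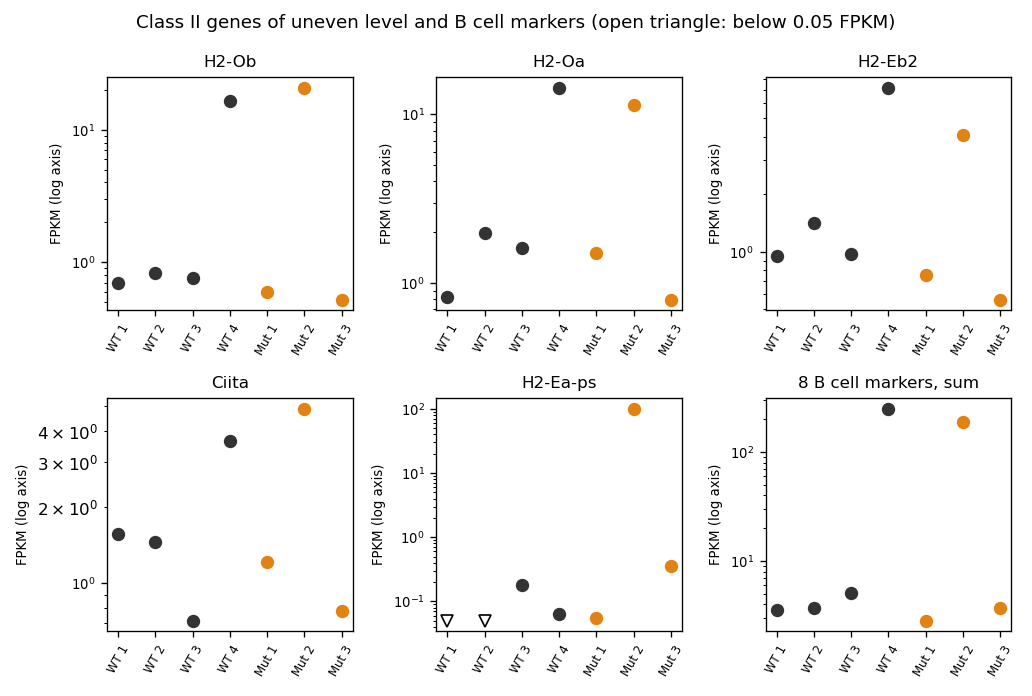
FPKM on log axes in each of the 7 libraries for 4 class II genes, Ciita and the sum of 8 B cell markers, where an open triangle stands for a value listed below 0.05 FPKM. H2-Ob, H2-Oa, H2-Eb2 and Ciita are highest in wild-type replicate 4 and mutant replicate 2, as is the B cell sum (248.7 and 189.7), whereas H2-Ea-ps is high in mutant replicate 2 only (99.95).

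Cd1d1, which presents lipids to NKT cells, measured 89.9, 70.1, 36.1 and 113.5 FPKM in wild type and 50.0, 53.0 and 36.0 in mutant libraries. Wild-type replicates 1, 2 and 4 lay above every mutant library and wild-type replicate 3 did not (log2 difference -0.63, 95% interval -1.50 to 0.23, limma adjusted p = 0.369). H2-Ke6 ranged from 40.6 to 51.7 in wild type and from 39.95 to 56.5 in mutant libraries (0.06).

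Class II was then set against class I within each library, where scaling cancels. The ratio of H2-Ab1 to H2-K1 was 0.242, 0.162, 0.240 and 0.427 in wild type and 0.175, 0.132 and 0.121 in mutant libraries. Wild-type replicate 2 was the one wild-type library below a mutant library. The mean log2 ratio, with 1 FPKM added, was lower by -0.84 in mutant libraries (exact two-sided permutation p = 0.0857, smallest possible 0.0286, adjusted p = 0.428 over 5 ratios). The ratio of Cd74 to B2m differed little between the group means, at 0.353, 0.276, 0.156 and 0.391 in wild type and 0.318, 0.281 and 0.230 in mutant libraries (log2 difference -0.02, exact permutation p = 1.0). The sum of H2-Aa, H2-Ab1 and H2-Eb1 over that of all heavy chain rows was 0.237, 0.162, 0.307 and 0.496 in wild type and 0.176, 0.141 and 0.119 in mutant libraries, with wild-type replicate 2 again inside the mutant range. The heavy chain sum may count some reads more than once.

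Each immunoproteasome subunit was set against the constitutive subunit it replaces. Psmb5 measured 73.5, 102.8, 161.3 and 135.2 FPKM in wild type and 76.8, 81.4 and 114.1 in mutant libraries. Psmb6 measured 84.8, 108.2, 194.8 and 157.5 in wild type and 83.7, 92.7 and 121.0 in mutant libraries. Psmb7 measured 101.8, 132.0, 222.9 and 169.4 in wild type and 109.1, 116.7 and 129.0 in mutant libraries. These constitutive subunits were highest in wild-type replicate 3 and mutant replicate 3, not in the replicates numbered 2. Psmb9 was at 0.539, 1.30, 0.431 and 0.509 of Psmb6 in wild type and at 0.572, 1.65 and 0.580 in mutant libraries. Psmb8 was at 1.0, 1.55, 0.758 and 0.879 of Psmb5 in wild type and at 1.03, 2.30 and 0.804 in mutant libraries. Psmb10 was at 0.362, 0.643, 0.282 and 0.450 of Psmb7 in wild type and at 0.349, 0.596 and 0.490 in mutant libraries. Both replicates numbered 2 thus had the highest RNA ratios of immunoproteasome to constitutive subunits in their group. Protein was not measured. The log2 differences between genotypes were 0.38, 0.30 and 0.17, with exact permutation p of 0.457, 0.543 and 0.686 (adjusted p = 0.858 for each over 5 ratios).

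**Figure D5:**
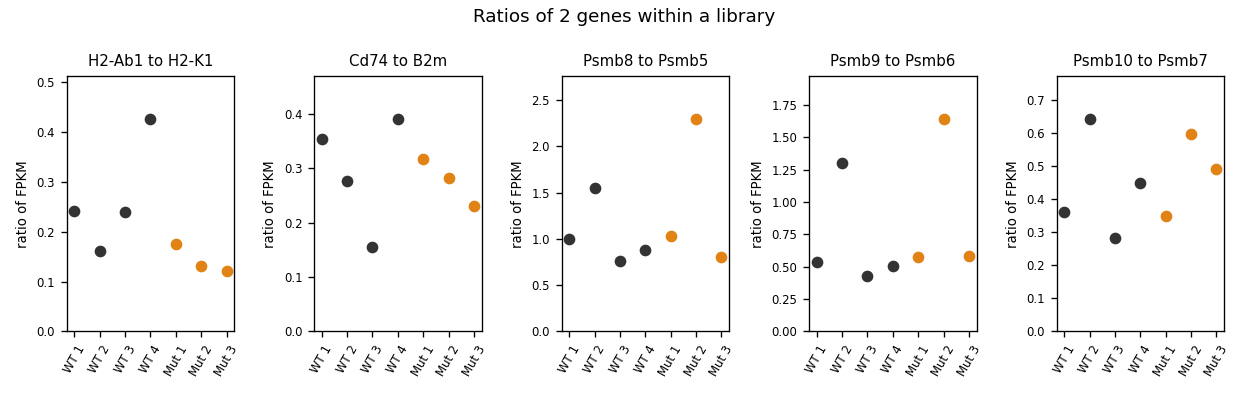
Ratio of FPKM of 2 genes within each of the 7 libraries, from 0 on each axis, for the class II to class I pairs and for immunoproteasome subunits over the subunits they replace. H2-Ab1 to H2-K1 is lowest in mutant replicates 2 and 3 (0.132 and 0.121), and the Psmb9 to Psmb6 ratio is highest in replicate 2 of both groups (1.30 and 1.65).

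Further genes of both pathways were read from 3 lists, and 0 of their 46 genes passed (limma). Of 18 genes of class I loading and related molecules, 13 had lower means (median log2 difference -0.34), among them Fcgrt, the class I-like receptor that carries IgG, at 128.5 ± 34.5 and 64.4 ± 6.28 FPKM (SD, n = 4 and 3) without overlap of the groups (-0.95, limma adjusted p = 0.158), and Hfe, an iron regulator of class I fold (-1.14). Of 12 genes of endosomal processing, 8 had lower means (median -0.36), including the cysteine protease gene Lgmn (-0.59) and Cst3 (-0.99), which encodes the protease inhibitor cystatin C, while Sppl2a, the protease that clears the last fragment of Cd74, was higher (0.67). Of 16 regulators, 12 had higher means (median 0.22). Relb, an NF-kappa B subunit, measured 21.5 ± 4.91 and 37.4 ± 3.39 FPKM (0.79, limma adjusted p = 0.159), and Rfx5, the X box binding protein, 7.16 ± 1.85 and 10.3 ± 0.614 (0.50, limma adjusted p = 0.252). The groups did not overlap for either.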

How the data were processed

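RNA of 7 of the 16 samples was analysed; the other 9 (ChIP-seq and DNase-seq) were not analysed here. Labels' protocols give poly(A) RNA, Trizol and a column kit, and TruSeq libraries. Per the submitters' processing notes, CASAVA, Bowtie2, STAR, DESeq2 and the build mm9 were used, with no version and no role given. The authors deposited FPKM per gene. Annotation, read counter and filters: not given in the sources used here.

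Members and gene lists were chosen with earlier results of these data known. Differences were tested in limma 3.58.1 (R 4.3.3, empirical Bayes with trend) after log2(FPKM + 1) transformation, over the 13392 genes that averaged 1 FPKM or more, without covariates, with Benjamini-Hochberg adjustment over all of them at 0.05. On simulated data with 13392 genes, of which 200 picked at random were shifted, it recovered 34% of shifts of 1 and 96% of shifts of 2 (log2). The simulated noise was independent between genes, which that of real libraries need not be. Ratios of 2 genes had an exact two-sided permutation test over 35 splits. Whole reads were recovered for 21042 of the 21044 rows above 0, within 0.02 of a read. As the labels do not say that replicates are separate animals, a p-value covers the spread among these libraries, which may be technical. By rule, values in every library are given for H2-K1, H2-D1, the 3 other most abundant heavy chains, the class II, loading and proteasome genes, and members of unadjusted p under 0.05; up to 3 genes of smallest p are named per pathway list. Promoters came from RefSeq (GRCm38.p6) for 38 of 56 members. Alternatives were another pseudocount, filter or scaling, left-out libraries, a term for wild-type replicates 3 and 4, and a replicate block. The result for 1 gene is not reported here.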

Additional observations from a re-analysis of the deposited data

Results flagged for a closer look

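Among 29 members examined in the 4 wild-type libraries, 5 had 1 library farther from the rest than Dixon's 95% limit for a gap relative to the range. Chance gives about 1 in 20 groups at that limit if values are normal and independent. The share of all genes flagged by this rule was not computed, so no excess is read from the count. Wild-type replicate 4 was the outlying library for H2-Ob (16.6 FPKM), H2-Oa (14.4 FPKM), H2-Eb2 (7.19 FPKM) and H2-DMb2 (74.3 FPKM). These 4 flags share that library and are not independent, and H2-Ob and H2-Eb2 were examined only through libraries where they are high. Wild-type replicate 2 was the outlying one for Tap1 (79.1 FPKM). The B cell marker sum was 248.7 FPKM in wild-type replicate 4, and its part in the first 4 values was not tested.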

How the results depend on the processing

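No member passed under any alternative (smallest limma adjusted p = 0.114), and the class II median stayed below 0 in each (-0.92 to -0.06). The count over all genes, 6, was 1 with a pseudocount of 0.1 or no filter, 0 with a mean of at least 5 FPKM, with wild-type replicates 3 and 4 given their own term, or without the libraries with B cell markers (an alternative chosen after seeing the data), 28 with quantile normalization, 260 against wild-type replicates 1 and 2, and 0 to 31 when 1 library was left out (17 without wild-type replicate 3, 31 without wild-type replicate 4). Same-numbered libraries correlated at 0.35, -0.104 and 0.283 in their deviations, and differently numbered ones at -0.196 to 0.338. These values do not settle whether the numbers pair the libraries. With the replicate block, in which wild-type replicate 4 has no partner, 0 genes passed. Under that block the differences that turned sign were 0.15 for Cd74/B2m, 0.19 for H2-Eb2, 0.11 for H2-DMb2 and 0.65 for H2-Oa. Those that turned against wild-type replicates 1 and 2 were -0.0071 for Psmb8/Psmb5, -0.034 for Psmb9/Psmb6, -0.047 for Psmb10/Psmb7, 0.15 for H2-Eb2, 0.17 for H2-DMb2, 0.71 for H2-Oa, 0.15 for Erap1, 0.032 for Psmb8, -0.013 for H2-Q4 and -0.048 for H2-Q10, without the libraries with B cell markers 0.13 for Cd74/B2m, -0.21 for Psmb8/Psmb5, -0.22 for Psmb9/Psmb6, -0.13 for H2-K1, -0.18 for H2-Ob, -0.045 for Tap1, -0.15 for Ciita, -0.00011 for H2-T23, -0.13 for H2-Q4 and -0.34 for H2-Q10, with quantile normalization 0.20 for Psmb8, 0.20 for Psmb9 and 0.011 for Psmb10, and with median-of-ratios scaling 0.0021 for H2-Oa. Leaving out 1 library gave -0.30 to 0.15 for Cd74/B2m, -0.15 to 0.61 for Psmb8/Psmb5, -0.12 to 0.73 for Psmb9/Psmb6, -0.012 to 0.38 for Psmb10/Psmb7, -0.13 to 0.37 for H2-K1, -0.83 to 0.19 for H2-Eb2, -0.97 to 0.11 for H2-DMb2, -1.01 to 1.09 for H2-Ob, -0.86 to 0.65 for H2-Oa, -0.056 to 0.19 for Tapbp, -0.19 to 0.078 for Erap1, -0.42 to 0.44 for Ciita, -0.42 to 0.20 for Psmb8, -0.48 to 0.35 for Psmb9, -0.42 to 0.089 for Psmb10, -0.092 to 0.54 for H2-Q4 and -0.33 to 0.22 for H2-Q10. The cause was not tested. None of these differences passed in any setting.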

Other observations

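Genes listed at 1 FPKM or more in a single library and at 10 or more times every other library were counted, a rule chosen after the values were seen. Mutant replicate 2 had 4 such rows, of which 2 were microRNA rows and H2-Ea-ps alone reached 50 FPKM. Wild-type replicate 4 had 69 such rows, and each of the other 5 libraries had 2 to 6. H2-Aa stood at 1.24, 1.12, 1.91 and 1.65 times H2-Ab1 in wild-type replicates 1 to 4 and at 1.11, 1.43 and 1.03 times in mutant replicates 1 to 3, so that the highest proportions were those of wild-type replicates 3 and 4. H2-Eb1 kept a narrower proportion to H2-Ab1, from 0.705 to 0.805 in all 7 libraries.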
